A study of Mus musculus with 1666 samples.

Results

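The 7 genes described here mark, in skin, the upper part of the hair follicle and the sebaceous gland: Krt79, Plet1, Gata6, Prdm1, Scd1, Mgst1 and Pparg. They were taken by symbol, and all 7 were among the 49662 symbols of the expression table. Single cells of embryonic mouse whisker follicles, at 7 stages between E11.5 and E17.0 (days of embryonic development), were sorted into lysis buffer and their total RNA was sequenced by RamDA-seq, a full-length method that does not depend on a poly(A) tail. The labels give no strain, genotype or treatment, and no embryo of origin, so each stage stands as 1 sample. The values are in TPM, each symbol's share of a cell's transcripts after scaling for length. Of 1614 cells, 1035 were epithelial by the rule used here, with Krt5 and Trp63 at 10 TPM or more and Col3a1 under 50 TPM. E11.5 gave 54 epithelial cells and E12.0 gave 267, while E13.0 had 53 and E13.5 had 159. E14.0 followed with 144, E15.0 with 178 and E17.0 with 180, and runs of 7 values below follow this order. Another 466 were mesenchymal (Col3a1 at 50 TPM or more, Krt5 and Trp63 under 10 TPM), and 113 met neither rule.

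The upper follicle holds the opening of the hair canal, the junction zone and the duct that joins the sebaceous gland to the canal. Krt79 is a type II keratin of the cells that form the hair canal and the gland duct, Plet1 is a surface protein of the upper follicle, and Gata6 is a transcription factor of the duct lineage. Prdm1, also called Blimp1, is a transcriptional repressor described in the sebaceous gland, in the differentiating epidermis and in the dermal papilla. Pparg is the nuclear receptor that directs sebocyte and fat cell differentiation. Scd1 is a desaturase that makes monounsaturated fatty acids, and Mgst1 is a membrane-bound glutathione transferase that is abundant in sebaceous cells.

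In GENCODE M21 coordinates (GRCm38, the assembly of mm10), Krt79 lies at chr15:101929332-101940324 on the minus strand, Plet1 at chr9:50494525-50505482 on the plus strand and Prdm1 at chr10:44437177-44528501 on the minus strand. Scd1 lies at chr19:44394455-44407879 on the minus strand. Mgst1 at chr6:138140316-138156755 and Pparg at chr6:115360951-115490399 are both on the plus strand. RefSeq start-site windows on build GRCm38.p6 were at hand for 5 of the 7 genes. The windows of Krt79 and Plet1 are shown because these were the pair found together most above the product of their shares, apart from pairs with the sparse Gata6. Each sequence is the 250 bases before the start, 5′ to 3′ on the gene's strand, and the capitals mark matches to the motifs listed after them. The Krt79 window is chr15:101940325-101940574 on the minus strand and the Plet1 window is chr9:50494275-50494524 on the plus strand.
Krt79: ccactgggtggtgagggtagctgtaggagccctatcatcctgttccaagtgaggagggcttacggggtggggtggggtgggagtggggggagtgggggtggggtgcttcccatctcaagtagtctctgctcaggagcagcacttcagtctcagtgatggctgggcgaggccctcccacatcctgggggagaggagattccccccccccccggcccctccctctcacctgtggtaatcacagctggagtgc
Plet1: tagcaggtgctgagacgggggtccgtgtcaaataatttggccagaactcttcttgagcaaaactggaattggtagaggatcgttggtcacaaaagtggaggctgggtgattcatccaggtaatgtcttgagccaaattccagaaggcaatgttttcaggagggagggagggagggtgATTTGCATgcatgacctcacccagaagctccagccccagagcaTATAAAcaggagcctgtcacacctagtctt

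The windows, which also run 50 bases past the start, were searched on both strands for AGATAA, a core bound by Gata factors. The other motifs were the PPAR response element (a direct repeat with a spacer of 1 base), TCACTTTC (a Prdm1 core) and ATTTGCAT (the octamer). The last was TATAAA, the TATA box. Among 32851 windows of the same length, 11.2% held AGATAA, 0.0396% the PPAR response element, 1.47% TCACTTTC, 1.74% ATTTGCAT and 13.6% TATAAA. Plet1 had ATTTGCAT at -73 and TATAAA at -30. Krt79 had no match before its start and AGATAA at 31 bases after it, within ccagctgggaaaAGATAAaaaggtgtttgg (chr15:101940277-101940306, minus strand). No window of the 5 genes held the PPAR response element or TCACTTTC. These matches describe the letters alone.

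The epithelial class carried its tissue's markers: all 12 basal epidermis genes had a median of 10 TPM or more in epithelial cells, against 2 of 12 in mesenchymal cells. Krt5 and Trp63 are part of the rule. The 4 defining markers of endothelial cells and the 4 of immune cells had medians under 10 TPM in the epithelial class, of which 3 and 2 were at 0. The median number of symbols at 1 TPM or more in epithelial cells was between 16497 at E17.0 and 19489 at E12.0. One plate stood apart. E15.0 plate 1 held 10 epithelial and 78 mesenchymal cells, while the other E15.0 plates held 53 to 58 epithelial cells each, and its number in the labels is also that of an E13.0 plate. Results at E15.0 that move with it are given with and without it.

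Krt79 was a gene of few cells with very high levels. No epithelial cell reached 10 TPM at E11.5 (0 of 54, which allows a share of up to 5.56%) or at E12.0 (0 of 267, up to 1.12%). From E13.0 on, in stage order, it was at 10 TPM or more in 9 of 53 (16.98%), 20 of 159 (12.6%), 21 of 144 (14.6%), 19 of 178 (10.7%) and 3 of 180 cells (1.67%). The exact 95% binomial intervals of these shares, which cover counting error alone, ran from 8.07% to 29.8% at E13.0 and from 0.345% to 4.79% at E17.0. Stage means, taken with plates weighted equally, were 0, 0.0651, 75.8, 122, 116, 35.03 and 14.7 TPM. The E15.0 mean was 17.1 TPM and the share 14 of 168 (8.33%) without plate 1, whose own mean was 88.7 TPM over 10 cells.

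The few high cells made up most of these Krt79 means. From E13.0 on, the highest cell of each stage reached 1087, 3393, 4440, 1149 and 964 TPM, while the median epithelial cell was at 0 at every stage. The 5 highest cells held 74.2%, 73.9%, 83.5% and 82.4% of the summed Krt79 TPM of epithelial cells in the 4 stages that follow E12.0. The median Krt79-positive cell of those 4 stages was at 397, 144, 94.2 and 35.9 TPM. At E17.0 the 3 positive cells stood at 798, 860 and 964 TPM, and E17.0 plate 1 held 0 of them among 58 epithelial cells. In mesenchymal cells 0 of 466 reached 10 TPM.

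Plet1 combined a low level across classes with a small set of higher epithelial cells. It was at 1 TPM or more in 600 of 1035 epithelial and 252 of 466 mesenchymal cells, but at 10 TPM or more in 105 epithelial and 0 mesenchymal cells. From E11.5 to E17.0 the epithelial cells at 10 TPM or more numbered 0, 3, 6, 31, 23, 25 and 17, or 0%, 1.12%, 11.3%, 19.5%, 15.97%, 14.045% and 9.44%. Stage means were 0.853, 2.02, 5.86, 13.9, 15.8, 11.2 and 17.5 TPM in epithelial cells, against 1.02, 1.56, 1.85, 2.06, 1.56 and 1.82 TPM in the mesenchymal cells of every stage except E12.0, which had no mesenchymal cell. E15.0 plate 1 was low for Plet1, at 0.908 TPM with 0 of 10 cells positive, and the E15.0 mean was 14.7 TPM without it. The E17.0 mean leaned on 1 cell at 996 TPM, and the 3 plates of that stage were at 3.26, 19.01 and 30.1 TPM.

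Gata6 stayed close to the lower limit at every stage. Its epithelial stage means lay between 0.0856 TPM (E11.5) and 0.566 TPM (E17.0), and it did not reach the mean of 1 TPM required for testing. In all, 7 of 1035 epithelial cells reached 10 TPM, of which E12.0 and E15.0 each had 1 and E17.0 had 5, the highest at 18.8 TPM. In mesenchymal cells it was 0 of 466. The related gene Gata3, a GATA factor of the epidermis and the inner root sheath, had stage means between 20.4 TPM (E11.5) and 460 TPM (E17.0) in the same epithelial cells.

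Prdm1 was the member found in most epithelial cells from E13.0 on. The share at 10 TPM or more was 0 of 54, 35 of 267 (13.1%), 32 of 53 (60.4%), 105 of 159 (66.04%), 77 of 144 (53.5%), 123 of 178 (69.1%) and 126 of 180 from E11.5 to E17.0. Stage means were 0.222, 4.52, 25.8, 34.2, 26.98, 50.7 and 58.9 TPM, and plate means lay between 16.9 and 35.1 TPM at E13.0, 41.7 and 59.4 TPM at E15.0 and 53.5 and 66.03 TPM at E17.0. Prdm1 was also a gene of the mesenchyme, with 54 of 214 mesenchymal cells at 10 TPM or more at E13.0 and 36 of 147 at E15.0. Its mesenchymal stage means, from E11.5 and without E12.0, were 0.515, 18.02, 58.8, 60.1, 25.8 and 20.2 TPM, and E15.0 plate 1 was at 2.19 TPM. Without that plate the E15.0 mesenchyme averaged 33.7 TPM, with 32 of 69 cells (46.4%) at 10 TPM or more. Mesenchymal cells with 3 or more of 6 dermal condensate markers, the signal centre that becomes the dermal papilla, held more of it: 40 of 94 against 14 of 120 of the other mesenchymal cells at E13.0, and 10 of 17 against 7 of 39 at E17.0. Mgst1 was also found more in these cells, in 24 of 94 against 10 of 120 at E13.0 and 11 of 17 against 1 of 39 at E17.0. Scd1 was not, at 28 of 94 against 37 of 120 and 4 of 17 against 13 of 39. Each contrast is between cells of 1 stage and has no test.

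Scd1 and Mgst1 were present in epithelium before any Krt79. Scd1 was at 10 TPM or more in 15 of 54, 58 of 267, 21 of 53, 14 of 159, 27 of 144, 42 of 178 and 50 of 180 epithelial cells, and its stage means lay between 3.15 TPM at E13.5 and 11.9 TPM at E13.0. The highest epithelial cell was at 67.96 TPM. In mesenchymal cells the Scd1 means lay between 3.55 TPM at E13.5 and 17.4 TPM at E11.5, so the ranges of the classes overlapped. Mgst1 was at 10 TPM or more in 33 of 54 (61.1%), 43 of 267 (16.1%), 12 of 53 (22.6%), 75 of 159 (47.2%), 56 of 144 (38.9%), 80 of 178 (44.9%) and 63 of 180 epithelial cells. Its stage means were 16.6, 4.37, 7.37, 18.1, 16.2, 38.4 and 24.5 TPM in epithelial cells, against 2.71, 5.89, 18.9, 17.2, 24.9 and 16.3 TPM in mesenchymal cells, which lack E12.0. Without plate 1 the E15.0 mean of Mgst1 was 26.99 TPM in epithelial and 32.1 TPM in mesenchymal cells, so the order of the classes at E15.0 turned. In epithelial cells the other 3 plates of E15.0 lay close together, at 26.5 to 27.4 TPM, and plate 1 was at 72.7 TPM.

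Pparg was low in epithelium, with stage means of 0.570, 1.42, 1.47, 1.12, 2.92, 7.55 and 2.08 TPM. It reached 10 TPM in 1, 3, 2, 5, 9, 16 and 8 epithelial cells, the largest share being 8.99% at E15.0. Plate 1 of E15.0 was at 20.3 TPM with 4 of 10 cells positive, and without it the E15.0 mean was 3.29 TPM and the share 12 of 168 (7.14%). Mesenchymal stage means were between 0.260 and 1.52 TPM, with 4 of 466 cells at 10 TPM or more. The highest epithelial cells of the 3 latest stages stood at 135, 82.4 and 66.04 TPM.

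**Figure D1:**
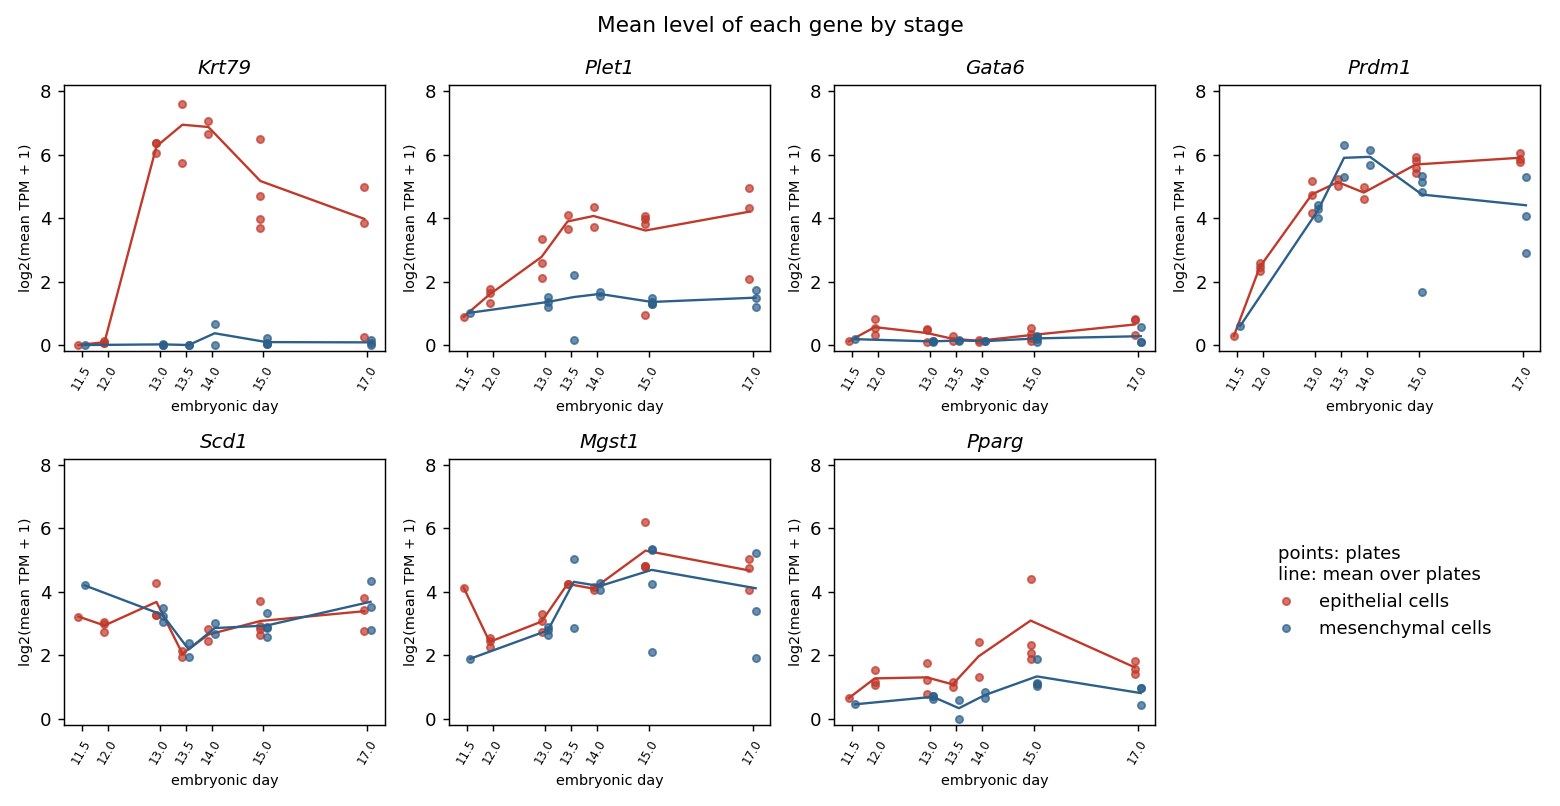
Mean level of each of the 7 genes against embryonic day, as log2(mean TPM + 1), in epithelial (red) and mesenchymal (blue) cells; points are plates and lines join the means over the plates of a stage. Krt79 stands at 75.8 TPM in epithelial cells at E13.0 and near 0 in mesenchymal cells, epithelial Prdm1 goes up to 58.9 TPM at E17.0 while its mesenchymal mean is highest at E14.0 (60.1 TPM), and Gata6 stays near 0.

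**Figure D2:**
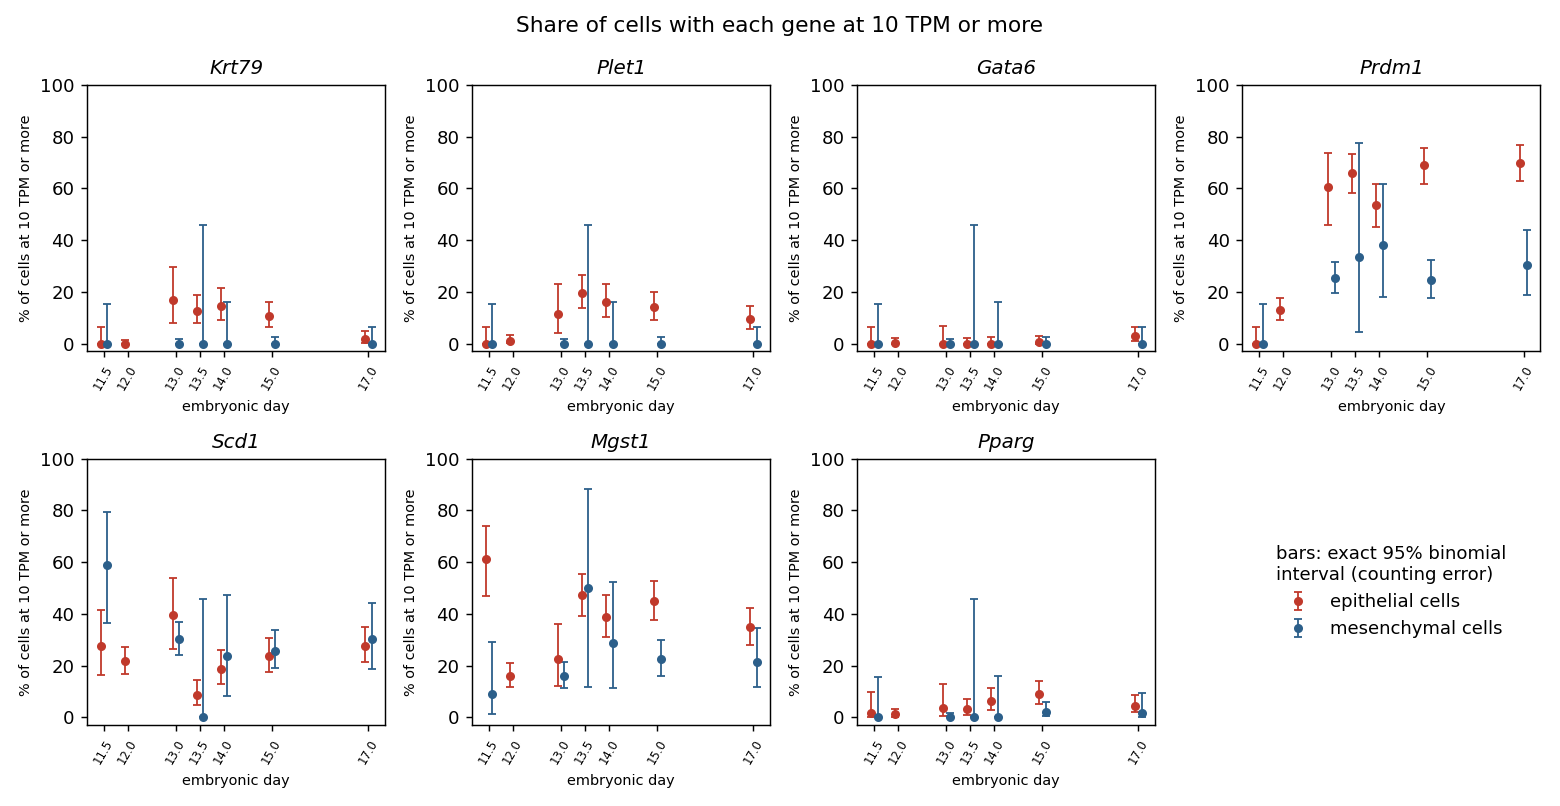
Percent of cells at 10 TPM or more for each gene against embryonic day, in epithelial (red) and mesenchymal (blue) cells, with exact 95% binomial intervals for counting error. Krt79 and Plet1 are at 0% in mesenchymal cells at each stage, Prdm1 is highest at E17.0, in 126 of 180 epithelial cells, and the 6 mesenchymal cells of E13.5 give wide intervals.

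Ordered by epithelial level at E14.0, Krt79 (116 TPM) stood first, then Prdm1 (26.98 TPM), Mgst1 (16.2 TPM), Plet1 (15.8 TPM), Scd1 (5.30 TPM), Pparg (2.92 TPM) and Gata6 (0.0971 TPM). Mgst1 and Plet1 were neighbours whose plates overlapped, at 15.7 and 16.7 TPM for Mgst1 and 12.2 and 19.3 TPM for Plet1. By share of cells the order at E14.0 was different, with Prdm1 (53.5%) and Mgst1 (38.9%) ahead of Scd1 (18.8%), Plet1 (15.97%) and Krt79 (14.6%).

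Change with embryonic day was tested with limma over the 7 stage means of the epithelial cells, as log2(TPM + 1). None of the 6 members tested passed at an adjusted p of 0.05, and 2 had an unadjusted p under 0.05, Plet1 and Prdm1, where 18.9% of all symbols tested did. Over all 23671 symbols tested, 1.87% passed in either direction, of which those that rose were 1.23% and those that fell 0.646% of all tested. The Plet1 slope was 0.58 ± 0.15 (SE) log2 units per day (limma adjusted p = 0.0945) and the Prdm1 slope 0.90 ± 0.23 (adjusted p = 0.0964). Krt79 had a slope of 0.74 ± 0.52 (adjusted p = 0.483), Mgst1 0.33 ± 0.15 (0.278), Pparg 0.24 ± 0.13 (0.358) and Scd1 0.03 ± 0.11 (0.909). Plet1 and Prdm1 passed when the rank of the stage replaced the day (adjusted p = 0.0223 for Plet1 and 0.0288 for Prdm1). With the stricter epithelial rule Plet1 passed (adjusted p = 0.0461).

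A curvature term, negative where the middle stages are high or where a rise levels off, was tested over the same stage means. The highest means of Prdm1 (58.9 TPM) and Plet1 (17.5 TPM) were at E17.0. Krt79 gave -0.70 ± 0.14 log2 units per day squared (limma adjusted p = 0.147), Prdm1 -0.31 ± 0.06 (0.141) and Plet1 -0.19 ± 0.05 (0.178). These 3 had an unadjusted p under 0.05 and 0 of 6 members passed after adjustment. The same held across the table, where 0% of 23671 symbols passed after adjustment and 13% had an unadjusted p under 0.05.

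Epithelial and mesenchymal cells were compared over the 5 stages with at least 10 cells of each class, with the stage as a block. Of 6 members, 3 were higher in epithelial cells and 0 were lower. The background was 19.9% of 24118 symbols in either direction, with 7.65% higher and 12.3% lower (1845 and 2961 symbols). With median-of-ratios scaling these became 2274 and 2411. Krt79 averaged 4.34 ± 0.92 (SE) log2 units higher in epithelial cells (limma adjusted p = 0.0208), Plet1 1.74 ± 0.41 (adjusted p = 0.0300) and Pparg 0.92 ± 0.23 (adjusted p = 0.0374). Over these 5 stages Krt79 averaged 48.4 TPM in epithelial and 0.0868 TPM in mesenchymal cells and Pparg 2.92 and 0.789 TPM, so both passed the 1 TPM filter through the epithelial class. With no filter the adjusted p was 0.0676 for Krt79, 0.0843 for Plet1 and 0.0926 for Pparg, and none of the 3 passed. On the log2(TPM + 1) scale these differences understate the ratio where mesenchymal values are near 0. Mgst1 differed by 0.72 ± 0.32 (adjusted p = 0.167), Prdm1 by 0.30 ± 0.37 (0.610) and Scd1 by -0.19 ± 0.21 (0.568).

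These 3 calls rested on all of the later stages. Leaving out E13.0, E14.0, E15.0 or E17.0 ended each of them, with log2 differences still between 3.80 and 4.46 for Krt79, 1.501 and 1.82 for Plet1 and 0.71 and 0.998 for Pparg (adjusted p between 0.0569 and 0.123). Leaving out E14.0 plate 2 ended them too, because the stage then fell under 10 mesenchymal cells. They held without E15.0 plate 1, with adjusted p = 0.0234 for Krt79, 0.0297 for Plet1 and 0.0262 for Pparg. When single-cell log2 values were averaged, Mgst1 (1.38, adjusted p = 0.0104), Prdm1 (1.22, 0.0463) and Krt79 (0.89, 0.0461) passed, and Plet1 (0.104) and Pparg (0.0669) did not. Counted over all alternative settings, the call ended in 6 of 27 for Krt79, 7 of 26 for Plet1 and 10 of 26 for Pparg.

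Of all symbols in the class test, 7.65% were higher and 12.3% lower in epithelial cells. Among other genes of the same compartments, 4 of the 7 upper follicle genes tested were higher in epithelial cells and 0 were lower. They were Krt17, a keratin of the follicle (7.504, limma adjusted p = 0.00460), Cldn4, a tight junction protein (2.49, 0.0251), Lgr6, a receptor of follicle stem cells (2.30, 0.0396), and the protease gene Klk10 (1.60, 0.00588). The list's median difference was 2.05 log2 units, against -0.08 over all symbols. Defb6 and Cst6, which mark the adult upper follicle, were not at 10 TPM in any Krt79-positive epithelial cell, with 0 of 72 for each. This absence was not particular to Krt79-positive cells. Among all 180 E17.0 epithelial cells the highest value was 7.02 TPM for Defb6 and 3.87 TPM for Cst6. Of 7 suprabasal differentiation genes tested, 6 were higher in epithelial cells, including Krt1, Krt10 and Krtdap. The class calls of these lists and of those below used the same 1 TPM filter. They were not followed with no filter or with a later stage left out, settings that ended the member calls.

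Of 17 sebocyte lipid synthesis genes tested, 2 were higher and 4 were lower in epithelial cells, as were 7.65% and 12.3% of all symbols tested. The higher ones were the transcription factors Cebpa (0.89, limma adjusted p = 0.0129) and Cebpb (1.59, 0.0244). The lower ones were the fatty acid elongases Elovl5 (-0.97, 0.00173) and Elovl6 (-0.63, 0.0346), the desaturase Fads1 (-0.91, 0.0143) and Soat1, which esterifies cholesterol (-0.76, 0.00526). Their list's median difference was 0.01 log2 units. Sterol synthesis genes gave 0 of 10 in either direction. In the trend test, 1.23% of all symbols rose and 0.646% fell. With embryonic day, 0 of 8 upper follicle, 0 of 17 sebocyte lipid, 0 of 10 sterol and 0 of 7 suprabasal genes passed limma, while 4 of 5 inner root sheath genes rose, among them Krt28 (1.11 log2 units per day, adjusted p = 0.0138) and Krt25 (0.87, 0.0374). Among markers of other cell types, the fibroblast collagens Col1a1 (0.70, 0.0194) and Col1a2 (0.93, 0.0268), which were 2 of 5 tested, and the melanocyte factor Mitf (0.62, 0.0418), the 1 tested of its list, rose with day in epithelial cells. The periderm list had 1 of 4 that fell, Cldn6 (-0.80, 0.0342). The part of these cell types in the members' values was not tested.

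The paralogs differed in level from the members. Scd2, another stearoyl-CoA desaturase, had epithelial stage means between 102 TPM (E17.0) and 199 TPM (E13.0), while those of Scd1 reached at most 11.9 TPM. Ppard, a related receptor, lay between 9.63 and 22.8 TPM, above Pparg at each stage. Mgst2 lay between 6.37 and 15.6 TPM, and Mgst1 was below it at E12.0 and E13.0 and above it at the other stages. Scd2 was 0.41 log2 units higher in epithelial than in mesenchymal cells (limma adjusted p = 0.0443). Scd1 and Scd2 are similar in sequence, as are the other Scd genes, so reads shared between them could have been divided in the deposited values.

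Co-detection was counted as epithelial cells with both genes at 10 TPM or more, beside the number that the product of the 2 shares gives within each plate. This product is arithmetic, with no test. Krt79 and Plet1 were together in 31 cells where the product gave 11.1. In stage order from E13.0 they were together in 6 cells (product 1.24), 9 (4.003), 10 (3.34), 3 (2.13) and 3 (0.354). At E13.0 all 6 Plet1-positive cells were Krt79-positive, and at E17.0 all 3 Krt79-positive cells were Plet1-positive. In between, the Plet1-positive cells were mostly without Krt79, since it was present in 9 of 31 (E13.5), 10 of 23 (E14.0) and 3 of 25 of them (E15.0).

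Krt79 and Mgst1 were together in 55 cells (product 30.4), which was 76.4% of Krt79-positive and 15.2% of Mgst1-positive cells. All 19 Krt79-positive cells at E15.0 had Mgst1 at 10 TPM or more, as did all 3 at E17.0, against 4 of 9 at E13.0. Without E15.0 plate 1 it was 14 of 14 at E15.0. Krt79 and Pparg were together in 12 cells (product 5.52), 7 of them at E15.0 (4 without E15.0 plate 1), and Mgst1 and Pparg in 30 cells (product 18.0). Of the 44 Pparg-positive epithelial cells, 68.2% had Mgst1 and 27.3% had Krt79. Prdm1 was close to its product with Krt79 (53 cells, product 45.2), Mgst1 (197, product 192) and Pparg (30, product 26.6).

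3 pairs were found in fewer cells than their product, each of them with Scd1 or Plet1. Plet1 and Scd1 were together in 11 cells (product 20.99), Plet1 and Prdm1 in 52 (product 65.7) and Prdm1 and Scd1 in 90 (product 107.6). The last of these came from E17.0, where 12 cells had both Prdm1 and Scd1 and the product was 34.3. From E12.0 to E15.0 the observed counts were 9, 14, 10, 16 and 29 beside products of 7.58, 12.9, 9.25, 14.51 and 29.1. Pairs with Gata6 rest on its 7 positive cells, of which 6 had Prdm1, 6 had Mgst1, 3 had Scd1, 3 had Pparg and 1 each had Krt79 and Plet1.

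**Figure D3:**
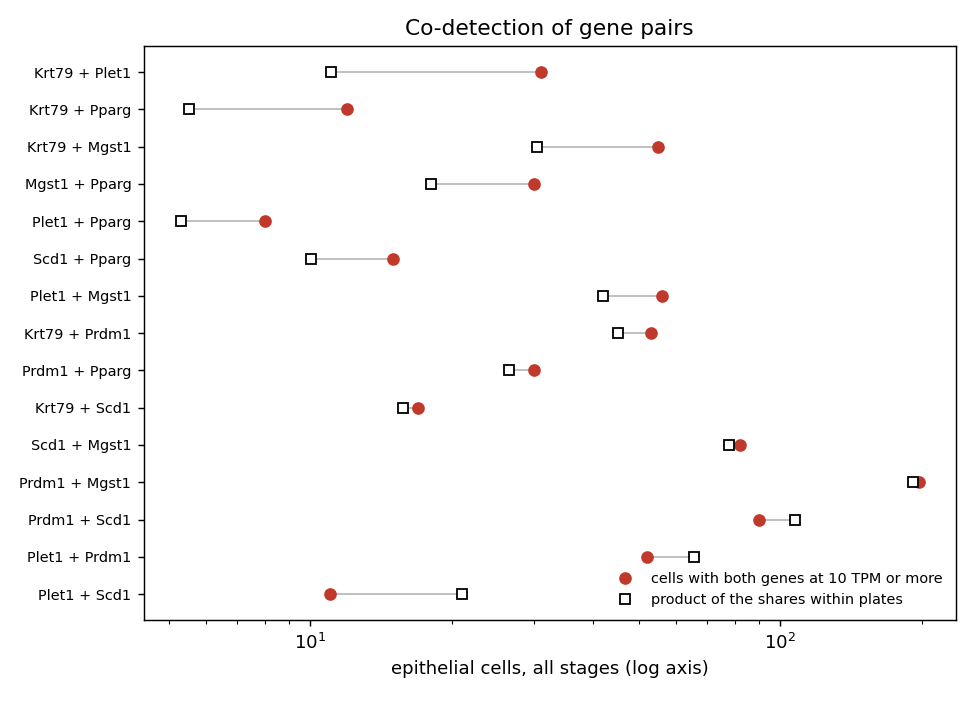
Epithelial cells of all stages with both genes of a pair at 10 TPM or more (filled circles) and the number given by the product of their shares within plates (open squares), on a log axis, for the 15 pairs without Gata6. Krt79 and Plet1 lie farthest above the product, at 31 cells against 11.1, and Plet1 and Scd1 lie below it, at 11 against 20.99.

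Krt79, Mgst1 and Pparg were all at 10 TPM or more in 12 epithelial cells, of which 3 were E14.0 cells, 7 were E15.0 cells and 2 were E17.0 cells. Of the 7 at E15.0, 3 were among the 10 epithelial cells of plate 1. With Scd1 added there were 4 such cells. In the 4 earlier stages 0 epithelial cells had all 3. 1 cell, at E17.0 on plate 2, had all 7 genes at 10 TPM or more, with Krt79 at 964 TPM, Plet1 at 17.1, Gata6 at 11.01, Prdm1 at 24.7, Scd1 at 57.1, Mgst1 at 735 and Pparg at 66.04 TPM. The other E17.0 cells with Krt79 had Plet1 at 46.6 and 996 TPM and Mgst1 at 371 and 48.9 TPM.

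**Figure D4:**
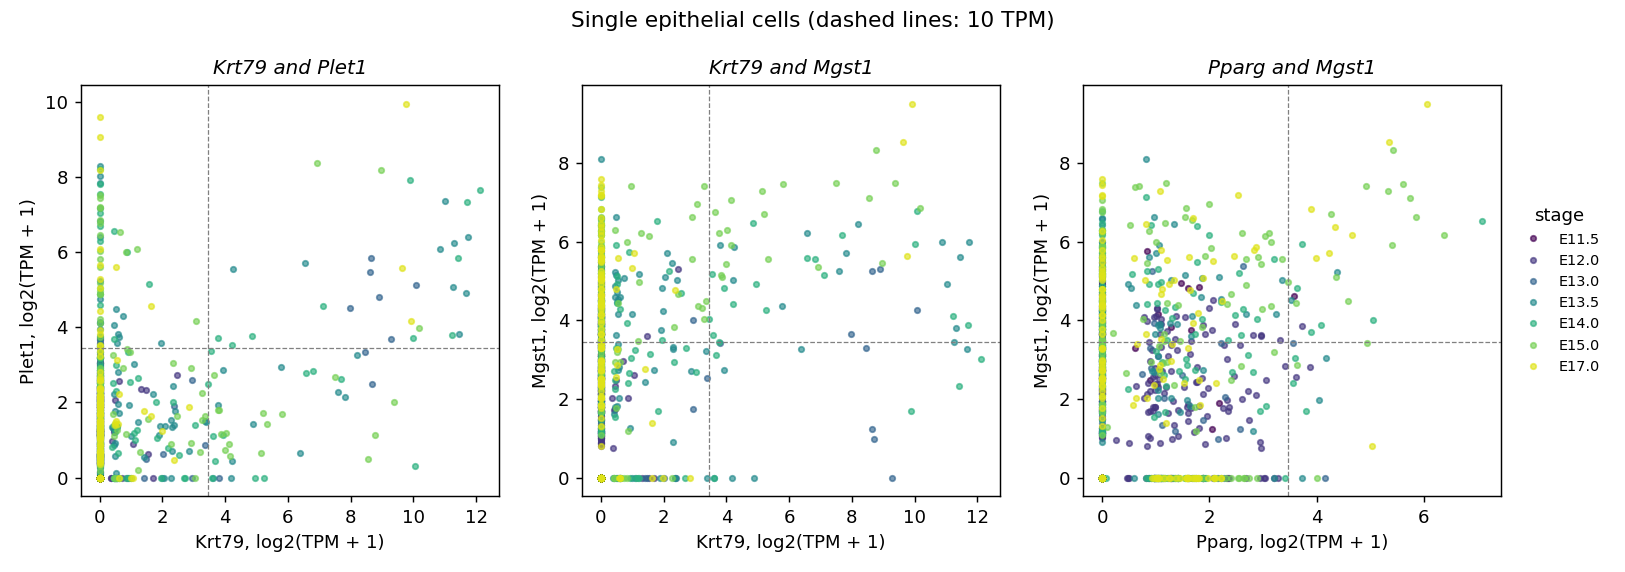
Levels in single epithelial cells as log2(TPM + 1), for Krt79 and Plet1, Krt79 and Mgst1, and Pparg and Mgst1, coloured by stage; dashed lines mark 10 TPM. Both genes are above the lines in 31, 55 and 30 cells.

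Krt10, a suprabasal keratin, was higher in Krt79-positive cells from E13.0 to E15.0, by share of cells or by mean. At E13.0 and E13.5 Krt10 was at 10 TPM or more in 7 of 9 and 13 of 20 Krt79-positive cells, against 4 of 44 and 24 of 139 of the other epithelial cells. At E14.0 Krt10 averaged 755 TPM in Krt79-positive cells and 51.8 TPM in Krt79-negative cells, and at E15.0 407 and 22.7 TPM, or 551 and 23.3 TPM without plate 1. Most Krt79-positive cells of E15.0 were under 10 TPM for Krt10 without plate 1. It reached 10 TPM in 6 of 14 of them (median 6.70 TPM) and in 13 of 154 Krt79-negative cells (median 3.09 TPM). Krt17, present in both, averaged 868 and 317 TPM at E14.0 and 1197 and 544 TPM at E15.0. Dgat2, an acyltransferase of triglyceride synthesis, was found in 9 of 19 Krt79-positive and 25 of 159 Krt79-negative cells at E15.0. The median number of symbols at 1 TPM or more was lower in Krt79-positive cells, at 15239 against 17770 at E13.0 and 16810 against 17357 at E15.0, and its part in these differences was not tested.

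Plet1-positive cells also carried suprabasal genes. From E13.5 on, in stage order, Krt1 was at 10 TPM or more in 24 of 31, 13 of 23, 6 of 25 and 2 of 17 Plet1-positive cells, against 20 of 128, 14 of 121, 6 of 153 and 0 of 163 Plet1-negative cells. Krtdap, a secreted protein of differentiating keratinocytes, was in 29 of 31 and 55 of 128 cells at E13.5 and in 12 of 17 and 46 of 163 at E17.0. Krt6a, a keratin of the companion layer and the hair canal, was in 12 of 23 Plet1-positive and 5 of 121 Plet1-negative cells at E14.0, and in 9 of 17 and 4 of 163 at E17.0. The tight junction gene Cldn4 was in 19 of 31 and 17 of 128 cells at E13.5 and in 0 of 17 and 7 of 163 at E17.0. Of the 5 periderm markers at E13.0, Cldn6 was in 6 of 6 Plet1-positive and 26 of 47 Plet1-negative cells, Krt19 in 2 of 6 and 11 of 47, Krt4 in 1 of 6 and 0 of 47, Krt8 in 0 of 6 and 9 of 47 and Krt18 in none of either. At E17.0 Krt18 was in 7 of 17 and 17 of 163, Krt8 in 5 of 17 and 18 of 163, and Krt4 in none of either. The part of periderm cells in the Plet1 values was not tested.

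Ahr, the aryl hydrocarbon receptor, was found more in Mgst1-positive and in Pparg-positive cells, as a description with no test. It was at 10 TPM or more in 68 of 80 Mgst1-positive and 36 of 98 Mgst1-negative cells at E15.0, and in 39 of 63 and 22 of 117 at E17.0. It was in 16 of 16 Pparg-positive and 88 of 162 Pparg-negative cells at E15.0, and in 7 of 8 and 54 of 172 at E17.0. Plin2, a lipid droplet coat protein, had a median of 35.1 TPM in Pparg-positive and 13.02 TPM in Pparg-negative cells at E15.0 (30.9 and 12.6 TPM without E15.0 plate 1), and of 35.8 and 16.2 TPM at E17.0. Fasn, the fatty acid synthase, averaged 69.3 TPM in Pparg-positive and 70.3 TPM in Pparg-negative cells at E15.0, and 74.7 and 71.8 TPM at E17.0. In the Pparg-positive epithelial cells of the 3 latest stages the 4 endothelial and the 4 fat cell markers were at 10 TPM in 0 cells, as were the immune markers Ptprc, Csf1r and Lyz2. The fourth immune marker, Cd68, was in 2 of 9, 2 of 16 and 3 of 8 of them in stage order, against 13 of 135, 25 of 162 and 21 of 172 Pparg-negative cells, and without E15.0 plate 1 it was in 0 of 12 Pparg-positive and 22 Pparg-negative cells of E15.0. At E12.0 Pecam1 was in 3 of 3 Pparg-positive and 152 of 264 Pparg-negative cells, and at E13.5 in 1 of 5 and 8 of 154. Cd68 was in 2 of 3 and 64 of 264 cells at E12.0 and in 3 of 5 and 21 of 154 at E13.5. The fat cell marker Plin1 was in 1 of 3 and 1 of 264 cells at E12.0 and in 0 of 5 and 1 of 154 at E13.5. The other endothelial, immune and fat cell markers were at 10 TPM in 0 Pparg-positive cells of E12.0 and E13.5. The part of immune, endothelial and fat cells in the Pparg values was not tested.

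At E17.0, Prdm1-positive and Scd1-positive cells differed in the follicle genes found with them, given here as counts with no test. Sox9, a transcription factor of follicle stem and outer root sheath cells, was at 10 TPM or more in 118 of 126 Prdm1-positive and 9 of 54 Prdm1-negative cells, and in 14 of 50 Scd1-positive and 113 of 130 Scd1-negative cells. Krt28, a keratin of the inner root sheath, was in 7 of 126 Prdm1-positive and 37 of 54 Prdm1-negative cells, and in 34 of 50 Scd1-positive and 10 of 130 Scd1-negative cells. The proliferation gene Mki67 was in 28 of 50 Scd1-positive and 24 of 130 Scd1-negative cells. Dct, used as a melanocyte marker, was in 19 of 50 and 3 of 130 of these cells, while the melanocyte markers Tyrp1 and Pmel were in 0 of 50 Scd1-positive cells. Among cells with 2 or more of 5 inner root sheath genes at E17.0, Prdm1 was in 1 of 24 and averaged 1.39 TPM, against 125 positive cells and 67.6 TPM among the other epithelial cells.

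Likeness across single cells was measured within plates, as the partial Spearman correlation given the number of symbols at 1 TPM or more. Cells of a plate share their library preparation and these values are descriptions. Prdm1 was most like Sox9 (mean rho 0.542 over 14 plates and 941 cells), Tbx1 (0.529), Nfatc1 (0.524), Elmo1 (0.519) and Barx2 (0.518). Scd1 was most like other lipid genes, Fads2 (0.417 over 15 plates and 995 cells), Fdps (0.409), Scd2 (0.369) and Acat2 (0.351), and then Ppia (0.350). Plet1 was most like Ifi202b (0.441 over 9 plates and 593 cells), Stfa3 (0.440), Krtdap (0.439), BC100530 (0.430) and Anxa1 (0.423). Krt79 was most like Krt17 (0.413 over 5 plates and 361 cells), Lgals7 (0.402), Krt80 (0.399), Tspan13 (0.396) and Cpe (0.371).

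Mgst1 had weaker partners, Ablim1 (0.334), Pdlim5 (0.333), Ahr (0.331), Tfap2a (0.322) and Ptpn13 (0.320), over 15 plates and 995 cells, and the plates ranged from -0.161 to 0.622 for Ahr. Pparg could be measured in 2 plates and 129 cells, where Ndufs7 (0.322), Vamp3 (0.308), Serhl (0.307), Gabarapl1 (0.306) and Ddx27 (0.303) came first. Gata6 had no plate with 5 positive cells. Among the members, Mgst1 and Krt79 were at 0.289 over the 5 plates of Krt79 and at 0.165 over the 15 of Mgst1, and Prdm1 and Plet1 at -0.181 over the 9 plates of Plet1.

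Across the 7 stage means, the genes most like each member by Pearson r of log2(TPM + 1) were others. Krt79 was most like Col9a3 (r = 0.992), Klf4 (0.982), Cdh1 (0.980), Kdm6b (0.980) and Far1 (0.980). Plet1 was most like Mcoln1 (0.997), Cebpb (0.992), Cav1 (0.991), Sfn (0.990) and Ptpn3 (0.989). Prdm1 was most like Lsm14a (0.994), Aplp2 (0.991), Oxct1 (0.986), Nf2 (0.986) and Map3k20 (0.986), and Mgst1 like Zcchc8 (0.978), Mpp1 (0.971), Helz (0.968), Cited2 (0.967) and Hps5 (0.964). Scd1 was most like Myo5a (0.958), Tcf4 (0.935), Ccni (0.934), Cbfa2t2 (0.922) and Zcchc14 (0.910). Pparg was most like Ctdspl2 (0.978), Fam117a (0.951), Smc1a (0.949), Pcnt (0.922) and Whrn (0.905), and Gata6, near 0 throughout, like Atg16l2 (0.951), Depdc5 (0.946), Mtpn (0.888), Arap1 (0.883) and Grk2 (0.867). These are the highest of 5570 candidate symbols over 7 points, with no p.

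Among the 113 cells of neither class, the members were found in cells with other markers. Of 46 such cells with 3 or more of 4 endothelial markers, Pparg was at 10 TPM or more in 19 (41.3%), Prdm1 in 28 (60.9%), and Krt79, Plet1, Gata6 and Scd1 in 0. Among 9 cells with 3 or more of 4 immune markers, Pparg was in 5 and Prdm1 in 3. Together these endothelial-marker and immune-marker cells were 24 of the 74 Pparg-positive cells of the table, against 44 epithelial and 4 mesenchymal ones. Mgst1 was in 12 of 14 cells with melanocyte markers, where Krt79, Plet1, Prdm1, Scd1 and Pparg were in 0.

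Krt79 reached 10 TPM in 2 cells outside the epithelial class. The first, at E15.0 on plate 4, had Krt79 at 26.4 TPM and 3 of 4 Merkel cell markers. The other, at E17.0 on plate 3, was the cell with the highest Scd1 and Mgst1 of all 1614 cells and was singled out after its values were seen. It had Scd1 at 1907 TPM, Mgst1 at 2781 TPM, Pparg at 110 TPM and Krt79 at 594 TPM, while the 180 E17.0 epithelial cells reached at most 64.998 TPM for Scd1, 735 TPM for Mgst1, 66.04 TPM for Pparg and 964 TPM for Krt79. Prdm1 was at 7.87 TPM, Plet1 at 0.502 TPM and Gata6 at 0. Of 22 sebocyte lipid synthesis genes, 20 were at 10 TPM or more in it and 15 were higher than in any other cell of the table.

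The lipid genes of that cell covered successive steps of sebum synthesis. The synthase Fasn was at 1182 TPM (median of E17.0 epithelial cells 66.5 TPM), the elongase Elovl3 at 488 TPM (median 0), Elovl6 at 1657 TPM (13.3), the wax synthase Awat2 at 63.4 TPM (0.760), Soat1 at 2544 TPM (6.19) and the droplet coat gene Plin2 at 1580 TPM (16.9). The sterol synthesis list had 10 of 10 genes at 10 TPM or more. Among basal genes, Krt14 was at 847 TPM, but Krt5 was at 1.71 TPM and Trp63 at 1.65 TPM, which kept it out of the epithelial class. Col17a1 was at 0. Of 10 suprabasal genes 2 were at 10 TPM or more, Dmkn at 84.4 TPM (median 1.73) and Sbsn at 23.98 TPM (median 0.331), and 6 were at 0, Krt1 among them. Of the 4 fat cell markers Cidec was at 16.2 TPM, where the highest E17.0 epithelial cell had 0.602 TPM, Fabp4 was at 1.17 TPM, Plin1 at 0.367 TPM and Adipoq at 0, and 0 of 8 fibroblast, 0 of 4 endothelial and 0 of 4 immune markers were at 10 TPM. It had 14806 symbols at 1 TPM or more.

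**Figure D5:**
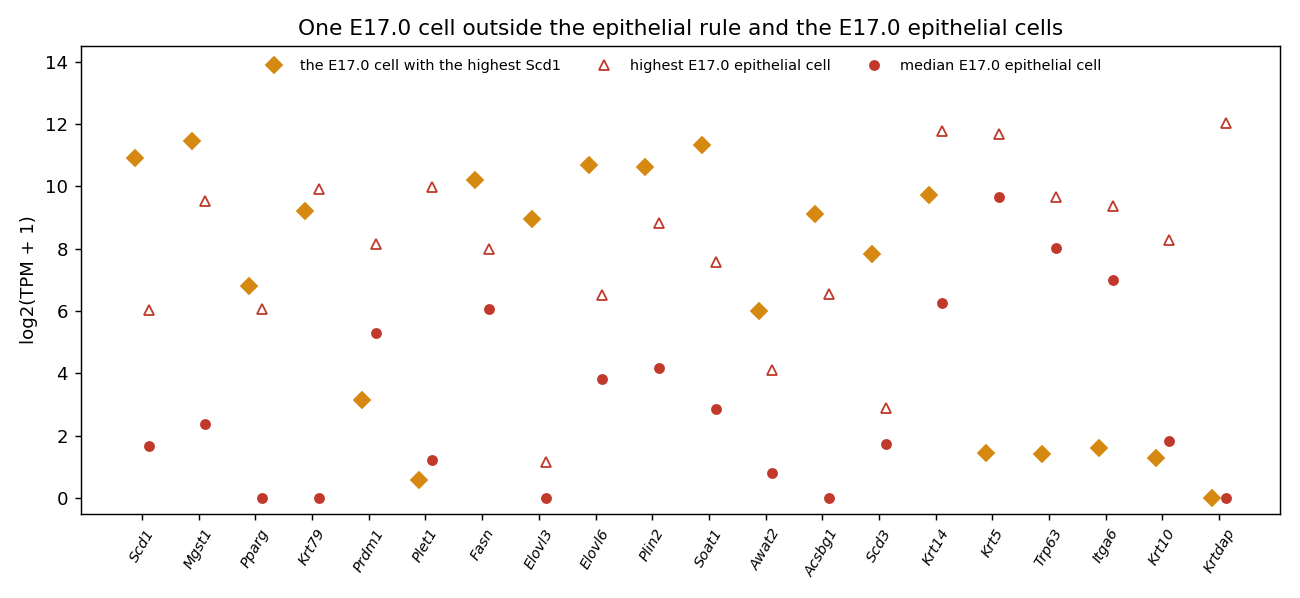
Levels, as log2(TPM + 1), in the E17.0 cell with the highest Scd1 (diamonds), beside the highest (open triangles) and the median (filled circles) of the 180 E17.0 epithelial cells, for members and for lipid, basal and suprabasal genes. Scd1, Mgst1, Pparg, Fasn, Elovl3, Elovl6, Plin2, Soat1 and Awat2 lie above every E17.0 epithelial cell, and Krt5, Trp63 and Itga6 lie below the median.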

How the data were processed

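Single cells of mouse whisker follicles were sequenced by RamDA-seq. The deposited table is labelled as TPM summed by the authors over genes that share a symbol. The submitters' processing notes name bcl2fastq 1.0, HISAT2 2.0.4, featureCounts, Subread 1.5.0 and mm10, without their settings. TPM keeps no read depth, so counting depth is unknown, and cell columns summed to between 991213 and 999516. Of 1666 labelled cells, 52 marked low quality have no column and 1614 were used, on 18 plates; the table had 0 other columns. Whether the counting used strand is not given in the sources used here.

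Stage means were taken as the mean over plates of the mean TPM over cells. limma 3.58.1 with trend was fitted to log2(TPM + 1) for symbols with a mean of 1 TPM or more, over the 7 stages (linear and quadratic day) or over 5 stages and 2 classes with stage as a block, adjusted by Benjamini-Hochberg over all symbols. Each stage is 1 sample, plates and cells are not replicates, and p-values measure the spread between stages. The linear trend fit, the class fit and the partial correlations were tested on simulated data, and the curvature fit was not. Cells were not screened for doublets. Shares have exact Clopper-Pearson 95% intervals. For a share of 0, the limit is 3 cells of the total.

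The members, gene lists and tests were chosen with earlier results of these data known. Apart from the members, genes were named from those lists where they passed a test or were among the 4 most abundant of a list, and by likeness (the 5 highest symbols at a stage mean of 20 TPM or more and at 10 TPM or more in 5% of cells, in plates with at least 20 epithelial and 5 positive cells). Krt6a, Mki67, other partner genes and the genes of single cells were picked after their values were seen. Alternatives varied the pseudocount, filter, averaging, scaling, class rule, stages and plates.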

Additional observations from a re-analysis of the deposited data

Results flagged for a closer look

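E15.0 plate 1 stood apart from the other plates of its stage in the mean TPM of its 10 epithelial cells for Krt79 (88.7, against 11.8 to 24.8 on the other plates), Mgst1 (72.7, against 26.5 to 27.4) and Pparg (20.3, against 2.72 to 3.96), and in Pparg in its 78 mesenchymal cells (2.69 TPM). Krt79 in mesenchymal cells stood apart on E15.0 plate 2, at 0.179 TPM. Chance alone sets about 1 group in 20 apart in this way, and 14 groups of 4 plates were looked at. The plates hold different numbers of cells of each class, and the part of this in these values was not tested.

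Outside the classes compared, 1 cell of E17.0 had Scd1 at 1907 TPM, Mgst1 at 2781 TPM, Pparg at 110 TPM and Krt79 at 594 TPM. Cells with 3 or more endothelial markers had Pparg at 10 TPM or more in 41.3% and Prdm1 in 60.9%, cells with 3 or more immune markers had Pparg in 55.6%, and cells with 3 or more melanocyte markers had Mgst1 in 85.7%. In the mesenchymal class Pparg was at 10 TPM or more in 0.858% of cells.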

How the results depend on the processing

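The count of members past the trend test was 0 and became 2 with the rank of the stage and 1 with the stricter epithelial rule; it was 0 in every stage or plate left out. The curvature count was 0 under all alternatives counted, which leave out the rank of the stage. The count of members higher in epithelial cells was 3. It became 1 with a filter at 10 TPM, where 3 members were tested, 0 with no filter, and lay between 0 and 3 with stages or plates left out. The count of members found in at least 10% of epithelial cells at some stage was 5, and 3 with detection at 50 TPM. The count of pairs above the product of shares was 18 of 21, some of them close to it, such as Scd1 and Mgst1 (82 cells, product 77.7). Every pair with Gata6 was among them, and these rest on 7 Gata6-positive cells, such as Krt79 and Gata6 (1 cell, product 0.169). Pairs of other genes were not counted for comparison. The count was 8 with detection at 50 TPM, where no epithelial cell had Gata6 and its pairs could not be counted. The Scd1 slope changed sign, to -0.0594 with log2 values averaged over cells and -0.00855 with stage rank, and ranged between -0.104 and 0.0778 with stages or plates left out; the Mgst1 slope was -0.00420 with log2 values averaged over cells. The Scd1 class difference ranged between -0.335 and 0.0129 with stages or plates left out and changed sign without E11.5. With stages or plates left out the slopes ranged between 0.312 and 1.96 for Krt79, 0.436 and 0.900 for Plet1, 0.576 and 1.44 for Prdm1, 0.148 and 0.587 for Pparg and 0.217 and 0.518 for Mgst1; with log2 values averaged over cells Krt79 was at 0.0669, Plet1 at 0.102, Pparg at 0.0921 and Prdm1 at 0.698. The causes were not tested. Rescaling to protein-coding symbols shifted the median symbol by 1.23 to 1.32 log2 units and removal of mitochondrial and structural RNA by 0.15 to 0.17. No paired analysis was possible because replicate numbers merely number cells in accession order; the class test already holds the stage as a block.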
